A study of Mus musculus with 24 samples.

Results

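The miR-99/miR-100 and miR-125 families were read in 24 liver libraries of the mouse as 10 mature miRNAs, chosen by name from a count table of 1908 mature miRNA names, of which 584 had no count in any library. They are mmu-miR-99a-5p, mmu-miR-99a-3p, mmu-miR-99b-5p, mmu-miR-99b-3p, mmu-miR-100-5p, mmu-miR-125a-5p, mmu-miR-125a-3p, mmu-miR-125b-5p, mmu-miR-125b-1-3p and mmu-miR-125b-2-3p, given without the species prefix from here on. The 5p strands are the guides, the strands that are loaded and kept, and the 3p strands are the passengers. Of the 10 members, 9 passed the filter on low counts and were among the 421 miRNAs tested; miR-99a-3p, with 2 to 18 counts per library, was not tested. The study compared 3 groups of C57Bl/6J mice, with 8 libraries in each. AM132 mice were made obese by 11 weeks of a high fat diet and then given a locked nucleic acid (LNA) oligonucleotide by vein, a 16-mer complementary to miR-132, at 3.3 mg/kg on each of 3 days in a row. AM608 mice were obese on the same diet and received the same dose of an LNA 15-mer complementary to miR-608, a primate miRNA used as a control target without predicted sites in mice. RCD mice were of the same age, lean on regular chow, with no injection named in the labels. Livers of the injected mice were taken 7 days after treatment. No group held uninjected obese mice, so a difference between AM132 and AM608 can come from either oligonucleotide, and diet and injection cannot be told apart in AM608 against RCD. The labels number the samples but do not say that each is a separate animal, so p-values reflect the spread among samples, which may be technical. In bulk liver RNA, fewer cells of a type and less RNA per cell cannot be told apart.

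A miRNA guide pairs with target messenger RNAs mainly through its seed, bases 2 to 8 from the 5′ end, so guides with one seed are expected to share many targets. Mammals keep miR-99/miR-100, let-7 and miR-125 genes side by side in 3 clusters that arose by duplication of one ancestral cluster. In human cells miR-100 and miR-99a are known to repress MTOR and IGF1R, a kinase and a receptor of growth signalling, and miR-125 is the vertebrate form of lin-4, a timing miRNA of Caenorhabditis elegans, known for its role in blood stem cells. The mature sequences below, from RefSeq on GRCm38.p6, show which members share a seed and where their passengers part; capitals mark the seed.
miR-99a-5p: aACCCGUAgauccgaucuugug
miR-100-5p: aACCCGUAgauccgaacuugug
miR-99b-5p: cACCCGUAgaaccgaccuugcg
miR-125b-5p: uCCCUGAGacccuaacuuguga
miR-125a-5p: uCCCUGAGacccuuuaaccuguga
miR-351-5p: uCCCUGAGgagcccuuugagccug
miR-99a-3p: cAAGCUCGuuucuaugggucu
miR-99b-3p: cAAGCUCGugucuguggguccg
miR-125a-3p: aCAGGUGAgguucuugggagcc
miR-125b-1-3p: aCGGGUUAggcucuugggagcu
miR-125b-2-3p: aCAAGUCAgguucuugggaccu

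The 3 miR-99/miR-100 guides had one seed. Counted from the 5′ end, miR-99a-5p and miR-100-5p differed at 1 base, U16A (the base of miR-99a-5p first). miR-99a-5p and miR-99b-5p differed at 4 bases, A1C, U11A, U16C and U21C. The miR-125 guides shared a second seed and their first 13 bases, and miR-351-5p of chromosome X, no family member by name, shared that seed and its first 8 bases with miR-125b-5p. The 5 passengers held 4 seeds: miR-99a-3p and miR-99b-3p were alike in their first 9 bases, whereas miR-125b-1-3p and miR-125b-2-3p differed at 5 bases, G3A, G4A, U7C, C11U and G20C, with 3 of these in the seed. A count of miR-125b-5p can therefore come from either of 2 hairpins with the same guide, and only its passengers tell the hairpins apart. The rule by which reads were assigned is not given in the sources used here, so reads could move between miR-99a-5p and miR-100-5p, which part at base 16.

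The members lie in 3 clusters (GRCm38). On chromosome 16, Mir99a (chr16:77598936-77599000), Mirlet7c-1 (chr16:77599657-77599750) and Mir125b-2 (chr16:77646273-77646343) lie within 47408 bp on the plus strand, in introns of the host transcript Mir99ahg. On chromosome 9, Mir100 (chr9:41531425-41531504), Mirlet7a-2 (chr9:41536716-41536811) and Mir125b-1 (chr9:41581926-41582002) lie within 50578 bp on the plus strand, in introns of the noncoding transcript 3110039I08Rik. On chromosome 17, Mir99b (chr17:17830188-17830257), Mirlet7e (chr17:17830352-17830444) and Mir125a (chr17:17830812-17830879) lie within 692 bp on the plus strand of the protein-coding gene Spaca6. Mir99b and Mirlet7e are in its introns and Mir125a overlaps an annotated exon. Other annotated genes also cover some hairpins. Mir125b-1 overlaps an exon of Gm28119 on the plus strand, and Mir100 overlaps an exon of the noncoding Gm48742 on the minus strand. Mir99a and Mirlet7c-1 also lie in introns of the protein-coding gene Gm11146 on the minus strand. The Mir99a hairpin, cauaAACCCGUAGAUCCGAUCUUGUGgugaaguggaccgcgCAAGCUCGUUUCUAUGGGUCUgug, and the Mir125b-1 hairpin, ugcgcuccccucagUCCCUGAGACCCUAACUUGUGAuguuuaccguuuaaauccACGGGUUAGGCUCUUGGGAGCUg, are shown for the place of the arms, with the guide and then the passenger in capitals.

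Library sizes ran between 5926983 and 8734721 miRNA counts in AM132, between 6855571 and 8532049 in AM608 and between 5689143 and 8380591 in RCD. miR-132-3p, the target of the 16-mer, had 0 counts in all 8 AM132 libraries, 92 to 341 counts in AM608 libraries and 69 to 339 in RCD libraries. All 5 hepatocyte markers were tested, and their sum took 494126 to 634259 CPM in AM132, 322914 to 498691 CPM in AM608 and 263338 to 542385 CPM in RCD libraries. CPM are counts per 1000000, scaled by TMM to the sum over tested miRNAs. RCD library 3 stood apart: the 7 listed neuronal markers, 4 of them tested, summed to 2262 CPM against an RCD median of 60.5 CPM, its hepatocyte sum was the lowest of its group, and it held the highest RCD values of miR-99a-5p, miR-99b-3p, miR-100-5p and miR-125b-1-3p. Where leaving it out turned a sign or a call on a member, the value without it stands beside the result.

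The guides were abundant, and their passengers were scarce. Averaged over all libraries, miR-99a-5p had 22610 CPM and ranked 9 among all 1908 names. miR-125b-5p ranked 30, miR-125a-5p ranked 34, miR-100-5p ranked 36 and miR-99b-5p ranked 41. Neighbours in this order overlapped in their library values, except that every miR-99a-5p value lay above every value of the other guides that miR-125b-5p lay above miR-125a-5p in all AM608 libraries, and that the miR-100-5p values of AM132 lay above its miR-99b-5p values. The tested passengers ranked 174 to 254, and miR-99a-3p ranked 436. All 10 members together took a median of 3.40% of all miRNA counts in AM132, 3.45% in AM608 and 3.00% in RCD libraries, and the passengers took 0.00690%, 0.0103% and 0.00831% in that order. Ligation and PCR can favour one small RNA over another, so levels of different miRNAs are compared here as read counts, not molecules.

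**Figure D1:**
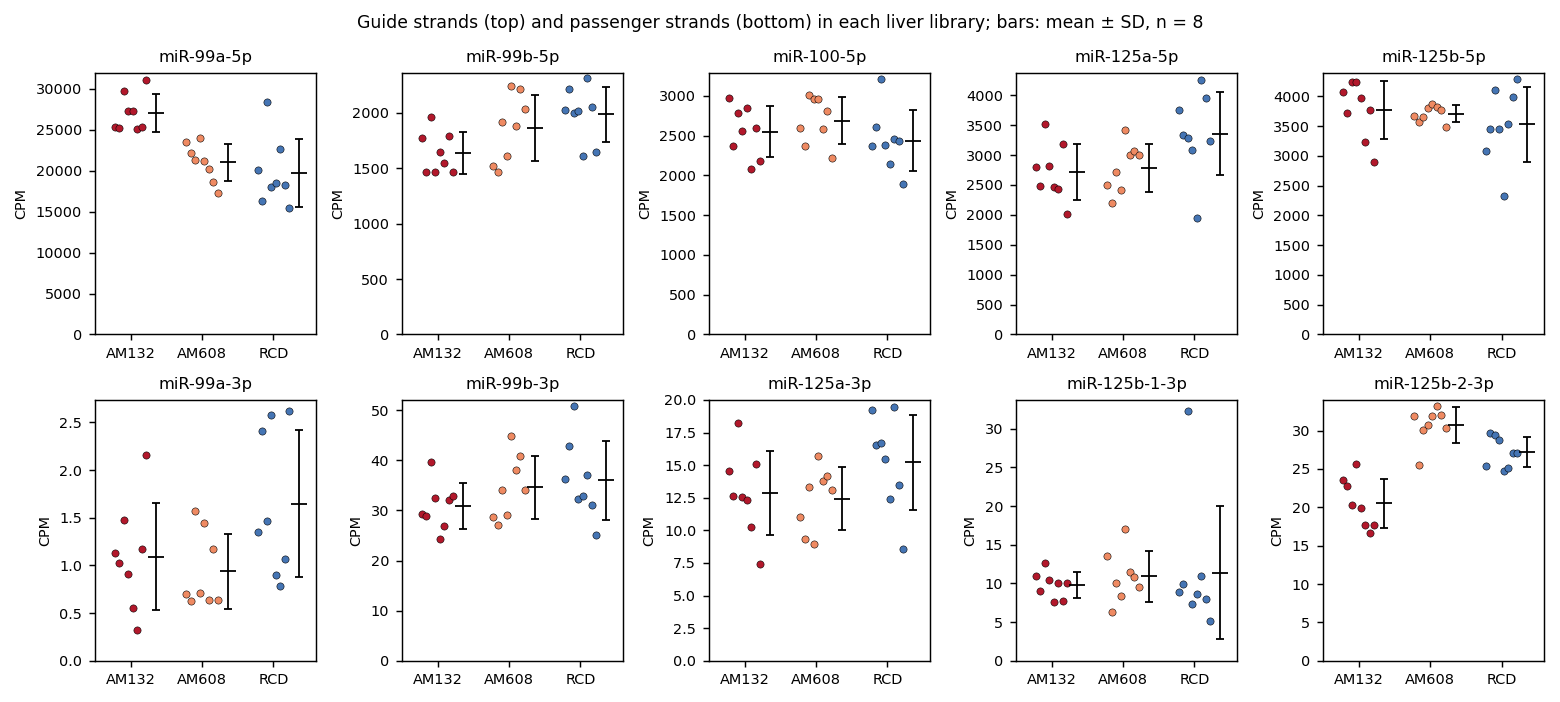
Levels in CPM (y axis, from 0) of the 5 guides (top row) and 5 passengers (bottom row) in AM132, AM608 and RCD libraries; each point is a library and bars show mean ± SD (n = 8). All miR-99a-5p values of AM132 lie above those of AM608, most miR-125b-2-3p values of AM132 lie below both other groups, and RCD library 3 stands alone at 32.3 CPM in miR-125b-1-3p.

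AM132 against AM608 sets both oligonucleotides side by side in obese liver. One guide rose and one passenger fell: miR-99a-5p was 1.29-fold higher and miR-125b-2-3p was 0.669 times as high in AM132, and both come from the chromosome 16 cluster. miR-99a-5p, the most abundant family member, had a lowest value of 25047, a median of 26299 and a highest value of 31136 CPM in AM132, against 17312, 21272 and 23972 CPM in AM608. All 8 AM132 libraries lay above all 8 AM608 libraries. The share of all tested miRNAs whose levels separated in this way was not counted, so how unusual this is cannot be said. The log2 fold change was 0.36 with an SE of 0.0998 (edgeR quasi-likelihood test, adjusted p = 0.0142, n = 8 each). Without AM608 library 7 or without AM608 library 8 the call was lost (edgeR, highest adjusted p = 0.0872, log2 fold change at least 0.30).

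The call on miR-99a-5p also rested on the scaling. With library totals in place of TMM, the log2 fold change was 0.12 (edgeR, adjusted p = 0.513), and that scaling moved the median of all tested miRNAs by -0.25. Set against all miRNA counts, the separation was smaller: miR-99a-5p took 2.26%, 2.38% and 2.73% of them (lowest, median and highest) in AM132 and 2.08%, 2.26% and 2.41% in AM608, so the groups overlapped in share. TMM factors ran from 0.827 to 0.975 in AM132 and from 0.963 to 1.24 in AM608. The hepatocyte marker sum, given above, had a median of 544291 CPM in AM132 and 392977 CPM in AM608, and the groups overlapped. Of the 5 hepatocyte markers, 1 was called higher in AM132 than in AM608. The part of these markers in the result was not tested. The endothelial markers miR-126a-5p and miR-126a-3p, both tested, summed to 42050 to 58548 CPM in AM132 and 41239 to 47918 CPM in AM608. Of these 2 markers, 0 were called in AM132 against AM608. The highest endothelial sum in AM132 was in library 8, which also held the highest miR-99a-5p value; the part of these cells in the result was not tested.

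miR-125b-2-3p, the passenger of the chromosome 16 copy of miR-125b, had a lowest value of 16.7, a median of 20.1 and a highest value of 25.7 CPM in AM132, against 25.5, 31.3 and 33.2 CPM in AM608. Of the 8 AM132 libraries, 7 lay below every AM608 library. These values rest on 98 to 198 counts per AM132 library and 205 to 309 per AM608 library. The log2 fold change was -0.58 with an SE of 0.0933 (edgeR, adjusted p = 4.57e-05), and the call was kept under every alternative setting and without any 1 library. The 7 mesenchymal markers, all tested, summed to 11379 to 18759 CPM in AM132 and 13142 to 22720 CPM in AM608, with 2 called lower in AM132. The 5 biliary epithelial markers, also all tested, summed to 808 to 2355 CPM in AM132 and 585 to 3158 CPM in AM608, with 1 called lower. The part of these cells in the result was not tested.

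The other tested members did not pass the threshold in AM132 against AM608. miR-99b-5p, the chromosome 17 relative of miR-99a-5p, had 1462, 1597 and 1965 CPM (lowest, median and highest) in AM132 and 1469, 1899 and 2240 CPM in AM608, a log2 difference of -0.18 (edgeR, adjusted p = 0.263). With library totals it passed at -0.45 (edgeR, adjusted p = 0.0126). miR-100-5p had 2084, 2574 and 2967 CPM in AM132 and 2221, 2700 and 3004 CPM in AM608. miR-125a-5p had 2013, 2644 and 3511 CPM in AM132 and 2202, 2860 and 3412 CPM in AM608. These 3 guides overlapped widely between the groups. miR-125b-5p, whose passenger from chromosome 16 was lower, had 2899, 3877 and 4245 CPM in AM132 against 3487, 3727 and 3882 CPM in AM608, a log2 difference of 0.02 (edgeR, adjusted p = 0.904) whose sign turned without any 1 of 15 libraries, RCD library 3 among them (lowest -0.02). Its spread over AM132 libraries, 483 CPM (SD), was wider than over AM608 libraries, 137 CPM.

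Among all tested miRNAs, 4.04% were called higher and 8.31% lower in AM132 against AM608, so 1 higher and 1 lower of 9 tested members is a count close to what the whole table gave. With library totals the table gave 8 higher and 83 lower calls, against 17 higher and 35 lower with TMM, and the members 0 higher and 2 lower. The median log2 fold change was -0.08 over the 9 tested members and 0.05 over all 421.

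AM608 against RCD sets obese, control-injected liver against lean liver. None of the 9 tested members passed the threshold (edgeR), against 13.5% of all tested miRNAs called higher and 15.2% called lower. One member, miR-125a-5p, had an unadjusted p under 0.05, and DESeq2 also called 0 members. miR-125a-5p had 2202, 2860 and 3412 CPM (lowest, median and highest) in AM608 and 1951, 3312 and 4253 CPM in RCD, a log2 difference of -0.27 (edgeR, unadjusted p = 0.0487, adjusted p = 0.131), with 7 of 8 AM608 libraries below the RCD median. Without RCD library 5, the lowest of its group, it passed at -0.33 (edgeR, adjusted p = 0.0235). miR-99a-5p had 17312, 21272 and 23972 CPM in AM608 and 15425, 18418 and 28444 CPM in RCD, where the highest value was RCD library 3; the log2 difference was 0.09 (edgeR, adjusted p = 0.527), and 0.19 without that library (edgeR, adjusted p = 0.0816). miR-100-5p, at 1893, 2409 and 3217 CPM in RCD, passed only when RCD library 3 and AM132 library 8 were both left out (log2 difference 0.21, edgeR, adjusted p = 0.0457).

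The passengers of the same comparison overlapped too. miR-99b-3p had 27.1, 34.1 and 44.9 CPM in AM608 and 25.1, 34.6 and 50.8 CPM in RCD, a log2 difference of -0.06 (edgeR, adjusted p = 0.773) that turned to 0.03 without RCD library 3. miR-125a-3p had 8.99, 13.2 and 15.7 CPM in AM608 and 8.60, 16.0 and 19.4 CPM in RCD, and all 8 AM608 libraries were below the RCD median. miR-125b-2-3p had 24.8, 27.1 and 29.7 CPM in RCD, so 7 of 8 AM608 libraries lay above every RCD library, yet the log2 difference of 0.18 missed the threshold (edgeR, adjusted p = 0.166). miR-125b-1-3p, the passenger of the chromosome 9 copy, had 6.34, 10.4 and 17.04 CPM in AM608 and 5.10, 8.75 and 32.3 CPM in RCD. The highest RCD value was again library 3, the next being 11.0 CPM, and the log2 difference was -0.07 with that library (edgeR, adjusted p = 0.860) and 0.38 without it (edgeR, adjusted p = 0.102).

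AM132 against RCD asks how far the anti-miR-132 liver lay from the lean one; it shares its AM132 and RCD libraries with the other comparisons. miR-99a-5p was 1.37-fold higher, miR-99b-5p was 0.825 times as high and miR-125b-2-3p was 0.756 times as high in AM132. For miR-99a-5p, at 25047, 26299 and 31136 CPM in AM132 and 15425, 18418 and 28444 CPM in RCD, the log2 fold change was 0.45 with an SE of 0.0999 (edgeR, adjusted p = 8.63e-04). All 8 AM132 libraries were above the RCD median and 2 of them were above RCD library 3; without that library the log2 fold change was 0.52 (edgeR, adjusted p = 1.63e-05). With library totals it was 0.24 (edgeR, adjusted p = 0.131). The endothelial sum was 42050 to 58548 CPM in AM132 and 28538 to 43231 CPM in RCD, where it was also highest in library 3. Called higher in AM132 than in RCD were 1 of the 2 endothelial markers and 2 of the 5 hepatocyte markers. In AM608 against RCD, where miR-99a-5p did not pass, 1 endothelial marker was also called higher and 1 hepatocyte marker lower. The part of these cells in the result was not tested.

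miR-99b-5p had 1462, 1597 and 1965 CPM in AM132 and 1610, 2022 and 2314 CPM in RCD, and all 8 AM132 libraries lay below the RCD median. Its log2 fold change was -0.28 with an SE of 0.0971 (edgeR, adjusted p = 0.0298), and the call was lost without AM132 library 4, 6 or 8 or RCD library 6 (edgeR, highest adjusted p = 0.0680). miR-125b-2-3p, at 16.7, 20.1 and 25.7 CPM in AM132 and 24.8, 27.1 and 29.7 CPM in RCD, was below every RCD library in 7 of 8 AM132 libraries. Its log2 fold change was -0.40 with an SE of 0.0933 (edgeR, adjusted p = 1.36e-03). miR-125a-5p, at 2013, 2644 and 3511 CPM in AM132 and 1951, 3312 and 4253 CPM in RCD, missed the threshold at -0.31 (edgeR, adjusted p = 0.0670) and passed it with DESeq2 (adjusted p = 0.0499), with RLE size factors (edgeR, adjusted p = 0.0368) and with library totals (edgeR, adjusted p = 0.0184). It also passed without AM132 library 3, AM608 library 8 or RCD library 5, with the lowest adjusted p, 4.57e-03 (edgeR), without RCD library 5. The 7 mesenchymal markers, all tested, summed to 11379 to 18759 CPM in AM132 and 15714 to 28966 CPM in RCD, lower in AM132 like miR-99b-5p, and 3 of the 7 were called lower in AM132; their part in the result was not tested. In this comparison 15.4% of all tested miRNAs were called higher and 18.8% lower, against 1 and 2 of the 9 tested members; with library totals the table gave 27 higher and 105 lower calls, against 65 and 79 with TMM, and the members 0 and 3.

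**Figure D2:**
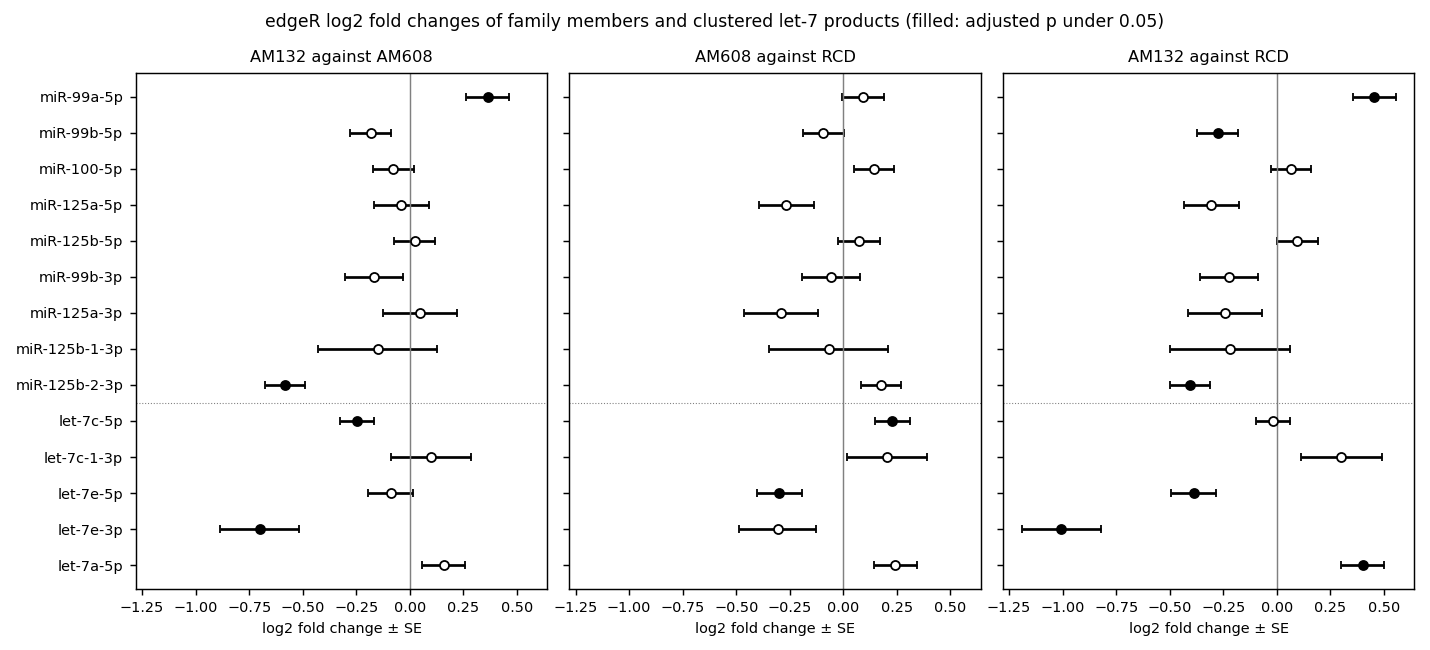
Log2 fold changes ± SE (x axis) from the edgeR fit for the 9 tested members (above the dotted line) and 5 let-7 products of the same clusters (below it), 1 panel per comparison; filled points have an adjusted p under 0.05. miR-99a-5p is filled at 0.36 and 0.45 in the comparisons of AM132, miR-125b-2-3p at -0.58 and -0.40, and no member is filled in AM608 against RCD.

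Because the miR-99/miR-100 guides share a seed, their mix was compared within each library, where the scaling drops out. miR-99a-5p made up 84.2%, 86.5% and 89.5% of the counts of the 3 guides (lowest, median and highest) in AM132, 78.8%, 81.6% and 85.2% in AM608 and 77.2%, 81.7% and 84.5% in RCD. AM132 lay toward the high end, with some overlap. Per read of miR-99a-5p there were 0.0701, 0.0938 and 0.117 reads of miR-100-5p in AM132, 0.107, 0.128 and 0.150 in AM608 and 0.108, 0.120 and 0.159 in RCD. For the mean log2 ratio of miR-100-5p to miR-99a-5p, AM132 differed from AM608 by -0.44 (two-sided exact permutation test, p = 7.77e-04, adjusted p = 3.11e-03 over 12 ratio tests). Against RCD the difference was -0.41 (exact permutation test, adjusted p = 3.11e-03).

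For miR-99b-5p, there were 0.0470, 0.0610 and 0.0706 reads per read of miR-99a-5p in AM132, 0.0649, 0.0915 and 0.119 in AM608 and 0.0703, 0.104 and 0.136 in RCD. The log2 difference was -0.54 in AM132 against AM608 (exact permutation test, p = 3.42e-03, adjusted p = 8.21e-03) and -0.75 in AM132 against RCD (exact permutation test, p = 3.11e-04, adjusted p = 3.11e-03). AM608 against RCD gave -0.21 for miR-99b-5p (exact permutation test, adjusted p = 0.291) and 0.04 for miR-100-5p (exact permutation test, adjusted p = 0.715), neither past the threshold. All 4 differences of AM132 stayed past the threshold without any 1 library. They share the AM132 libraries and the counts of miR-99a-5p, so they are not 4 separate results.

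The miR-125 guides were close to even. Per read of miR-125b-5p there were 0.621, 0.691 and 0.844 reads of miR-125a-5p in AM132, 0.615, 0.764 and 0.879 in AM608 and 0.753, 0.930 and 1.22 in RCD. The ratio was lower in both obese groups than in RCD. The log2 difference was -0.34 in AM608 against RCD (exact permutation test, p = 9.95e-03, adjusted p = 0.0178) and -0.40 in AM132 against RCD (exact permutation test, p = 2.18e-03, adjusted p = 6.53e-03), while AM132 against AM608 gave -0.06 (exact permutation test, adjusted p = 0.617). These comparisons share libraries. They also stayed on their side of the threshold without any 1 library.

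**Figure D3:**
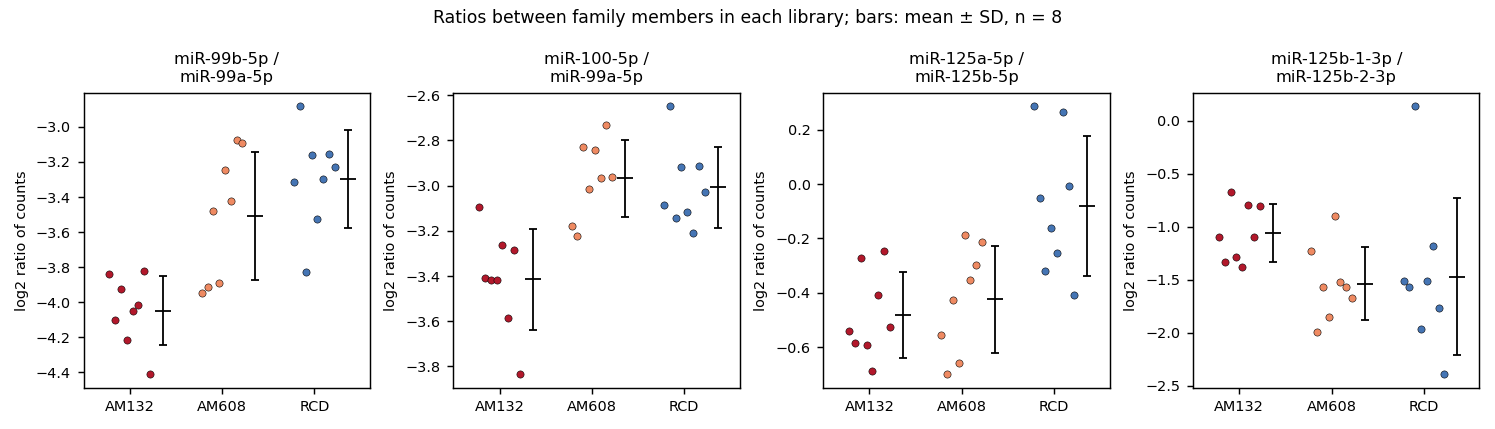
Log2 ratios of counts (y axis) between family members in AM132, AM608 and RCD libraries; each point is a library and bars show mean ± SD (n = 8). miR-99b-5p and miR-100-5p sit lower relative to miR-99a-5p in AM132, miR-125a-5p sits highest relative to miR-125b-5p in RCD, and RCD library 3 stands alone in the ratio of the 2 miR-125b passengers, at 1.10 reads of miR-125b-1-3p per read of miR-125b-2-3p.

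Guide and passenger of a hairpin are cut from one precursor, so their ratio was tested for each of 131 pairs of arms that were both tested. For miR-125b-5p over miR-125b-2-3p there were 163, 178 and 226 guide reads per passenger read (lowest, median and highest) in AM132, 115, 120 and 140 in AM608 and 94.1, 131 and 158 in RCD. No AM132 library overlapped either other group. The mean log2 ratio was 7.52 ± 0.180 in AM132, 6.92 ± 0.0952 in AM608 and 7.00 ± 0.240 in RCD (SD, n = 8 each). The difference was 0.60 in AM132 against AM608 (exact permutation test, p = 1.55e-04, the smallest that 12870 assignments allow, adjusted p = 1.02e-03) and 0.52 in AM132 against RCD (exact permutation test, p = 1.55e-04, adjusted p = 1.27e-03). AM608 against RCD gave -0.08 (exact permutation test, adjusted p = 0.706). miR-125b-5p also holds the guide reads of Mir125b-1, so this ratio is not that of 1 hairpin.

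The remaining 3 tested pairs passed in no comparison. For miR-99b-5p over miR-99b-3p the median was 53.3 guide reads per passenger read in AM132, 54.2 in AM608 and 59.0 in RCD. For miR-125a-5p over miR-125a-3p it was 206 in AM132, 222 in AM608 and 201 in RCD. For miR-125b-5p over miR-125b-1-3p it was 389 in AM132, 357 in AM608 and 347 in RCD, with RCD library 3 at 127. For this pair the log2 difference was 0.11 in AM132 against RCD (exact permutation test, adjusted p = 0.837) and turned to -0.10 without that library. Among all 131 pairs, 30.5% were called in AM132 against AM608, 9.92% in AM608 against RCD and 19.1% in AM132 against RCD, and the groups did not overlap in 15.3% and 12.2% of pairs in the comparisons of AM132 with AM608 and with RCD. One called pair of 4 in each comparison of AM132 is thus near the share over the whole table.

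**Figure D4:**
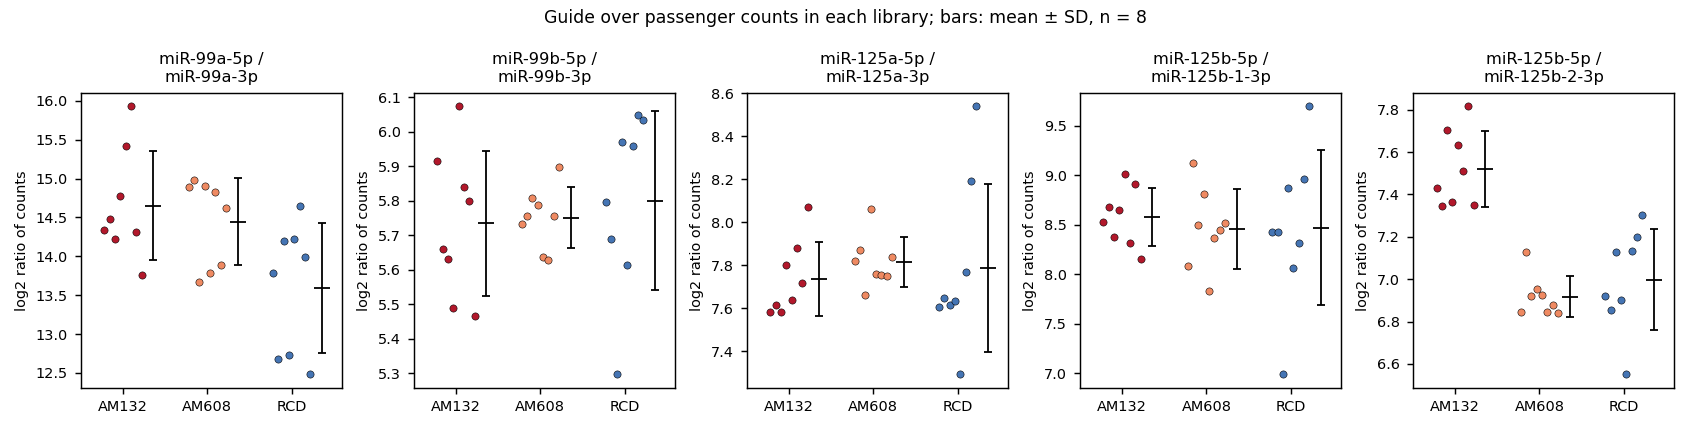
Log2 ratios of guide to passenger counts (y axis; pseudocount 0.5) in AM132, AM608 and RCD libraries; each point is a library and bars show mean ± SD (n = 8). Only miR-125b-5p over miR-125b-2-3p separates AM132, at a mean of 7.52, from AM608 at 6.92 and RCD at 7.00.

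The most lopsided hairpins were those of miR-99a and miR-100, whose passengers were too scarce to test. miR-99a-5p had a median of 23523 reads per read of miR-99a-3p in AM132, 29604 in AM608 and 16037 in RCD. miR-99a-3p itself had 0.321, 1.08 and 2.16 CPM in AM132, 0.622, 0.709 and 1.57 CPM in AM608 and 0.785, 1.41 and 2.62 CPM in RCD. miR-100-3p, not among the 10 members, had at most 6 counts in any library, and miR-100-5p had medians of 4889, 9153 and 5707 reads per passenger read in AM132, AM608 and RCD. No order of the groups can be read from so few passenger counts.

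Each miR-125b passenger read tells which copy of the gene that read came from, but not how many guide reads each copy gave. There were 0.382, 0.464 and 0.627 reads of miR-125b-1-3p (chromosome 9) per read of miR-125b-2-3p (chromosome 16) in AM132, 0.249, 0.336 and 0.534 in AM608 and 0.188, 0.342 and 1.10 in RCD. The log2 difference was 0.48 in AM132 against AM608 (exact permutation test, p = 0.0104, adjusted p = 0.0178). Against RCD it was 0.41 (exact permutation test, adjusted p = 0.250), and 0.64 without RCD library 3 (exact permutation test, adjusted p = 4.66e-03), so the missing call there rested on 1 library. AM608 against RCD gave -0.07 (exact permutation test, adjusted p = 0.841), and 0.16 without that library. The marker sums of that library, neuronal and others, are given above, and their part in the ratio was not tested. miR-125b-1-3p itself had 7.62, 10.1 and 12.7 CPM in AM132 against the AM608 and RCD values above, with log2 differences of -0.15 from AM608 (edgeR, adjusted p = 0.799) and -0.22 from RCD (edgeR, adjusted p = 0.564); without RCD library 3 the difference from RCD turned to 0.20. The other passengers of AM132, miR-99b-3p at 24.4, 30.6 and 39.6 CPM and miR-125a-3p at 7.38, 12.6 and 18.2 CPM, did not pass against AM608 or RCD.

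The let-7 products of the same clusters give the neighbours' values. let-7c-5p, the neighbour of miR-99a-5p on chromosome 16 with a second copy elsewhere, had 9500, 11711 and 12468 CPM in AM132 and 12625, 13759 and 14805 CPM in AM608, with no overlap; the log2 fold change was -0.25 (edgeR, adjusted p = 0.0448), opposite in sign to miR-99a-5p. That call was lost without any 1 of 8 libraries (AM132 libraries 3 to 8 and AM608 libraries 1 and 5) and without the filter on low counts. As for miR-99a-5p, the share of all tested miRNAs whose levels did not overlap was not counted. let-7e-3p, the passenger between miR-99b and miR-125a on chromosome 17, had 4.65, 7.02 and 11.3 CPM in AM132, 9.16, 11.9 and 13.8 CPM in AM608 and 7.01, 14.6 and 21.03 CPM in RCD. Its log2 fold change was -0.70 in AM132 against AM608 (edgeR, adjusted p = 9.75e-03) and -1.01 in AM132 against RCD (edgeR, adjusted p = 1.28e-04).

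let-7e-5p had 282, 314 and 404 CPM in AM132, 261, 345 and 430 CPM in AM608 and 348, 419 and 509 CPM in RCD. Its log2 fold change was -0.39 in AM132 against RCD (edgeR, adjusted p = 6.00e-03) and -0.30 in AM608 against RCD (edgeR, adjusted p = 0.0350), a call that was lost without any 1 of 10 libraries, with library totals and without the filter. let-7a-5p, made from chromosome 9 and other loci, was higher in AM132 than in RCD (log2 fold change 0.40, edgeR, adjusted p = 3.13e-03). Among 6 listed let-7 products, 5 were tested. Of these, 2 fell in AM132 against AM608, 1 rose and 1 fell in AM608 against RCD, and 1 rose and 2 fell in AM132 against RCD. Over all tested miRNAs, 4.04% were called higher and 8.31% lower in AM132 against AM608. The shares were 13.5% and 15.2% in AM608 against RCD, and 15.4% and 18.8% in AM132 against RCD.

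Of 6 relations tested between products of one cluster, the 2 on chromosome 17 were positive in each group and held without the libraries farthest from the median. Over the 24 libraries, log2 CPM of miR-99b-5p and let-7e-5p had a Pearson r of 0.85 and a Spearman rho of 0.86 (permutation test, p = 2.00e-05 for r and 1e-05 for rho, the smallest that 100000 resamples can give, adjusted over 6 relations to 6.00e-05 and 3.00e-05). The resampling over the 24 libraries ignored the groups, so differences between groups enter all these pooled p-values. Without AM132 library 8 and RCD library 6, the farthest from the median, r was 0.81. Within groups rho was 0.62 in AM132 (exact permutation test, adjusted p = 0.259 over 18 tests), 0.98 in AM608 (exact permutation test, adjusted p = 7.14e-03) and 0.81 in RCD (exact permutation test, adjusted p = 0.0980). miR-99b-5p and miR-125a-5p likewise had r of 0.80 and rho of 0.81 (permutation test, p = 2.00e-05 and 1e-05, adjusted p = 6.00e-05 and 3.00e-05), r of 0.74 without the same libraries, and rho of 0.69 in AM132, 0.95 in AM608 and 0.86 in RCD (exact permutation test, adjusted p = 0.178, 0.0103 and 0.0643).

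In the wider clusters no relation met both conditions. On chromosome 16, miR-99a-5p and let-7c-5p had r of -0.18 (permutation test, p = 0.404, adjusted p = 0.485) and rho of -0.21 (permutation test, p = 0.318, adjusted p = 0.382), although rho was 0.76 within AM608 (exact permutation test, adjusted p = 0.110). miR-99a-5p and miR-125b-2-3p had r of -0.58 (permutation test, p = 3.19e-03, adjusted p = 4.78e-03) and rho of -0.53 (permutation test, p = 8.05e-03, adjusted p = 0.0161), and r of -0.54 without AM132 library 8 and RCD library 8. Within groups rho was 0 in AM132, -0.33 in AM608 and -0.33 in RCD (exact permutation test, adjusted p = 1, 0.642 and 0.642), so the pooled relation did not hold within groups. On chromosome 9, miR-100-5p and let-7a-5p had r of 0.05 (permutation test, p = 0.822, adjusted p = 0.822) and rho of 0.11 (permutation test, p = 0.614, adjusted p = 0.614). miR-100-5p and miR-125b-1-3p had r of 0.60 (permutation test, p = 1.51e-03, adjusted p = 3.02e-03) and rho of 0.44 (permutation test, p = 0.0330, adjusted p = 0.0496), but r of 0.33 without RCD libraries 3 and 8, so that relation rests on these libraries. Within groups its rho was 0.12 in AM132, 0.19 in AM608 and 0.79 in RCD (exact permutation test, adjusted p = 0.892, 0.844 and 0.101). let-7a-5p and let-7c-5p have copies outside these clusters, and neighbouring guides in a library share its depth and scaling.

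**Figure D5:**
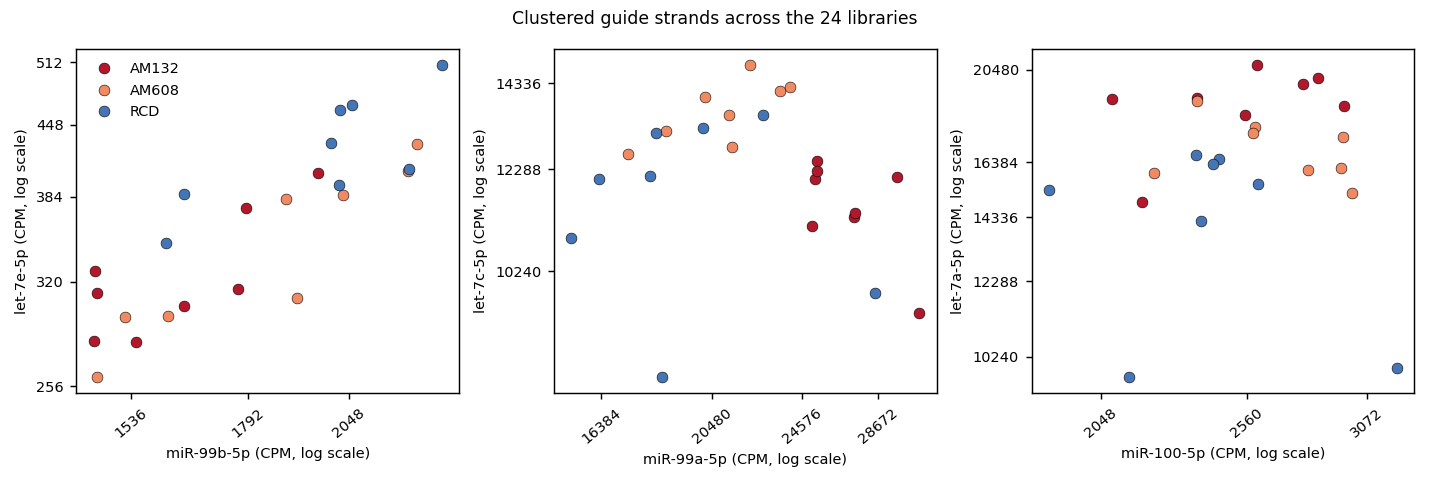
CPM of a let-7 guide (y axis, log scale) against the miR-99/miR-100 guide of its cluster (x axis, log scale) in the 24 libraries, for chromosome 17 (left), 16 (middle) and 9 (right); each point is a library, coloured by group. The chromosome 17 points rise together, with rho of 0.86, while the other panels, at -0.21 and 0.11, show no common trend.

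The non-members whose log2 CPM was most like that of each guide over the 24 libraries were found by Spearman rho. For miR-125a-5p these were let-7e-5p (rho 0.91), let-7k (0.79) and miR-296-3p (0.77). For miR-99b-5p they were let-7e-5p (rho 0.86), miR-296-3p (0.84) and miR-206-3p (0.78). miR-99a-5p was most like miR-187-3p (rho 0.82), miR-1843b-3p (rho 0.75) and the endothelial miR-126a-3p (rho 0.75). After group means were removed, the rho of miR-99a-5p was 0.63 with miR-187-3p, 0.68 with miR-1843b-3p and 0.77 with miR-126a-3p. miR-100-5p and miR-125b-5p had no close match: the highest rho was 0.64 and 0.51, both with miR-467b-5p and miR-467a-5p, which carry identical values. miR-224-5p (0.58) and miR-5129-3p (0.50) came next.

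Other miRNAs can add to the pool of a seed. miR-351-5p, with the miR-125 seed, had 104.8, 131.8 and 148.6 CPM in AM132, 134, 174 and 183 CPM in AM608 and 73.3, 122 and 137 CPM in RCD, far below the miR-125 guides. Its log2 fold change was -0.38 in AM132 against AM608 (edgeR, adjusted p = 0.0176) and 0.57 in AM608 against RCD (edgeR, adjusted p = 2.79e-04), and all 8 AM132 libraries lay below the AM608 median. Without the filter on low counts the first of these calls was lost (edgeR, adjusted p = 0.104). The miR-10 family is close to miR-99/miR-100 in sequence but has another seed. Bases 2 to 8 of miR-10a-5p are ACCCUGU, against ACCCGUA in the miR-99/miR-100 guides, so it does not add to their pool. miR-10a-5p was 0.17 log2 units higher in AM132 than in RCD (edgeR, adjusted p = 0.0116), a change whose sign turned to -0.02 with library totals. miR-10b-5p had 32.9, 55.3 and 177 CPM in AM608 and 32.2, 109 and 4292 CPM in RCD, the highest being RCD library 3; the log2 fold change was -3.06 (edgeR, adjusted p = 8.66e-03). Without that library the log2 fold change was -0.84 (edgeR, adjusted p = 0.218).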

How the data were processed

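Small RNA of mouse liver was sequenced in 24 libraries. Per the labels' protocols, RNA (RIN above 8.4) was extracted with the miRNeasy Mini Kit and 300 ng went into NEBNext small RNA libraries, which were sequenced on an Illumina NextSeq. The deposited values are raw read counts per mature miRNA, made by the authors; FastQC is the tool named in the submitters' processing notes, while aligner, build and assignment rule are not given in these sources. The labels name no molecular identifiers, so PCR copies count as reads. A table of tRNA fragments was not used here.

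Column names give each library's group and number. Counts were tested with edgeR 4.0.16 (R 4.3.3; robust quasi-likelihood fit, TMM, filterByExpr with a minimum count of 10, all 24 libraries, group as the only term), adjusted by Benjamini-Hochberg over 421 miRNAs at 0.05. An SE is the absolute log2 fold change over the square root of F. Arm ratios used a pseudocount of 0.5 and two-sided exact permutation tests over 12870 assignments, adjusted over 131 pairs. The 4 ratios between members, in 3 comparisons, were adjusted over 12 tests. Members, lists, ratios and relations were chosen with earlier results of these data known. The text names all members and, per guide, the 3 non-members with the highest Spearman rho. Also looked up were the let-7 products of the members' clusters, miRNAs with a member's seed and the miR-10 family. Among these, let-7c-1-3p and miR-10a-3p passed in no comparison, and let-7a-2-3p and miR-10b-3p were not tested. miR-6367 and miR-6394 had no count in any library, and miR-670-5p had at most 2 counts. All 84 within-group pairs of libraries differed by more than sampling noise (chi-square over its degrees of freedom at least 25.7).

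In simulated counts with the real means and depths, the fit (421 miRNAs) recovered 52.9% of changes of 0.5 log2 units in AM132 against AM608. It recovered 51.3% of them in AM608 against RCD and 56.1% in AM132 against RCD. For changes of 1 log2 unit it recovered 85.2%, 83.4% and 83.0% in that order. Each simulation changed more miRNAs, up or down at random, than were called in any comparison of the data. These rates can therefore overstate the recovery in the data. Alternatives were RLE size factors, library totals, no filter, DESeq2 1.42.0, fits of 2 groups, a replicate block, limma 3.58.1 and a pseudocount of 5 for ratios, arms with a mean of at least 50 counts, and leaving out libraries. Sequences are from RefSeq (GRCm38.p6) and hairpin annotation from GENCODE on GRCm38; all 10 members matched.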

Additional observations from a re-analysis of the deposited data

Results flagged for a closer look

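In groups of 8 libraries, values far from the rest of their group for the size of its range were found in 3 of 54 groups of member levels and ratios examined; chance gives about 1 in 20 groups. miR-125b-1-3p of RCD library 3 had 32.3 CPM, with the next RCD library at 11.0 CPM. miR-125b-2-3p of AM608 library 2 had 25.5 CPM, with the next AM608 library at 30.1 CPM. The log2 ratio of miR-125b-5p to miR-125b-2-3p in AM608 library 2 was 7.13, with the next AM608 library at 6.95, still below every AM132 library.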

How the results depend on the processing

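The calls on miR-125b-2-3p and on its ratio to miR-125b-5p in the comparisons of AM132 held under every alternative run. In AM132 against AM608, library totals gave 91 called miRNAs (8 higher, 83 lower) and a fit of the 2 groups alone 87, against 52; limma gave 25 called arm ratios, against 40. In AM608 against RCD, leaving out RCD library 3 and AM132 library 8 gave 1 called member (main count 0) and 20 called arm ratios (main count 13). Leaving out 1 library at a time gave 1 to 2 called members in AM132 against AM608 (1 without AM608 library 7 or 8). In AM608 against RCD it gave 0 to 1 called members (1 without RCD library 5 or 6). Without RCD library 5 the called member was miR-125a-5p. Without RCD library 6 no member tested in the main fit was called. That call can only be miR-99a-3p, tested once the filter on low counts was rerun. Called arm ratios in AM608 against RCD ran from 6 to 20. There were 20 without RCD library 3 and 6 to 8 without any 1 of AM608 libraries 1 to 7. The cause was not tested.

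Several differences that missed the threshold turned their sign. With library totals this held for miR-100-5p (-0.14) and miR-125b-5p (-0.11) in AM132 against RCD, for miR-125a-3p (-0.21) and miR-125b-5p (-0.22) in AM132 against AM608, and for the called miR-10a-5p in AM132 against RCD (-0.016). In a fit of 2 groups miR-125b-5p was at -0.00646 in AM132 against AM608. Without RCD library 3 and AM132 library 8, miR-125b-1-3p was at 0.38 in AM608 against RCD and 0.19 in AM132 against RCD, and miR-99b-3p at 0.028 in AM608 against RCD. The same setting gave -0.041 for the log2 ratio of miR-125b-5p to miR-125b-1-3p in AM132 against RCD, 0.022 for miR-99b-5p to miR-99b-3p in AM132 against AM608 and 0.16 for miR-125b-1-3p to miR-125b-2-3p in AM608 against RCD. A pseudocount of 5 gave 0.016 for miR-125b-5p to miR-125b-1-3p in AM608 against RCD.

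Leaving out 1 library at a time, signs also turned in AM132 against AM608 for miR-125a-5p (-0.12 to 0.015), miR-125a-3p (-0.046 to 0.13), miR-125b-5p (-0.022 to 0.073) and the ratio of miR-99b-5p to miR-99b-3p (-0.065 to 0.022). In AM608 against RCD they turned for miR-99b-3p (-0.12 to 0.028), miR-125b-1-3p (-0.19 to 0.38), and the ratios miR-125a-5p to miR-125a-3p (-0.043 to 0.14), miR-125b-5p to miR-125b-1-3p (-0.22 to 0.16) and miR-125b-1-3p to miR-125b-2-3p (-0.20 to 0.16). In AM132 against RCD they turned for miR-125b-1-3p (-0.35 to 0.20) and the ratios miR-125a-5p to miR-125a-3p (-0.12 to 0.057) and miR-125b-5p to miR-125b-1-3p (-0.10 to 0.28). These values lie near 0 or rest on few passenger counts.

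Same-numbered samples of different groups did not clearly deviate together. Of 24 pairs, 10 had a correlation over 0.1 (lowest -0.42, median 0.05, highest 0.40), and 5 of 24 libraries correlated best with their own number. No pairing by number was seen, but this check could miss a weak one. With the replicate block, 47 miRNAs were called in AM132 against AM608 (52 without it), 109 in AM608 against RCD (121 without it) and 62 higher and 70 lower in AM132 against RCD (65 and 79 without it), and 2, 0 and 3 members, as without it. miR-125b-1-3p turned to 0.095 in AM608 against RCD under the block. Depth limits the passengers: miR-99a-3p, at 2 to 18 counts, was not tested in the main fit.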
